A study of Caenorhabditis elegans with 2 samples.

Results

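The 30 genes described here encode proteins of synaptic transmission and other neuronal functions, and the question is where along them the zinc finger protein ROW-1 was found in the nematode Caenorhabditis elegans. They make up 30 of the 19973 protein-coding genes on the nuclear chromosomes of the WBcel235 (ce11) gene models. The genes were chosen by name, as a list, and the list was selected on measured values: earlier results of these data had shown that its count of peaks changes strongly with the way a peak is assigned to a gene. Their peak counts are therefore given as a description, without a test. Chromatin immunoprecipitation with an anti-GFP antibody, followed by sequencing (ChIP-seq), was performed on whole hermaphrodites at the L4 larval stage, 48 h after synchronization as starved L1 larvae, in 2 biological replicates of 1 group. Strain OP510 has the genotype unc-119(tm4063) III; wgIs510, and wgIs510 is the transgene that expresses row-1 (F37D6.2) with a C-terminal GFP-FLAG tag. All animals carried both, no untagged or input sample was analysed here, and signal that any GFP-tagged protein would give at these sites is not set apart. The antibody saw all cells of the animal at once, so a site bound in few cells and a site bound weakly in many cannot be told apart.

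Neurons release transmitter when a synaptic vesicle fuses with the plasma membrane. Fusion is driven by SNARE proteins on both membranes and controlled by priming factors, a calcium sensor and the active zone, where vesicles dock. Neuropeptides leave from dense-core vesicles, in which enzymes cut and trim them from longer precursors, while small transmitters are made by dedicated enzymes and loaded by vesicular transporters. In C. elegans many of these genes were first found as unc (uncoordinated) mutants. Most parts of the release machinery are used by nearly all neurons, whereas a transmitter's enzyme and transporter mark the neurons that use it.

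A peak was called at 15 of the 30 genes (50%) when each summit was given to the gene with the nearest protein-coding 5' end, against 6.77% of all nuclear protein-coding genes. It was called at 4 of 30 (13.3%) when the summit had to lie in the promoter window, from 500 bp upstream to 200 bp downstream of a 5' end, against 4.58% of all. The peaks are those of the optimal list, which the authors made from both replicates with an irreproducible discovery rate (IDR) threshold. It held 1574 peaks, the strongest 1574 of the 30000 calls of the pooled list, and its lowest signal value was 74.8. A longer pooled list of 30000 calls, which the authors describe as peaks and background, reached down to a signal of 12.4. Signal values are the authors' own, on a scale not given in the sources used here, and they rank peaks within a list. The files give no read counts, so the depth is unknown.

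The ce11 reference sequences (RefSeq) at 10 of the summits, 101 bases each centred on the summit and written 5' to 3' on the strand of the gene, are shown because they hold the peaks that the results turn on. Capitals mark 5 words of 6 bases on either strand: the overlapping GAGAGA with AGAGAG, and CGTCTC with the words GACGCA and then ACGCAG, which also overlap one another. These words set the summits of all other nuclear optimal peaks most apart from their flanks. The 4 promoter summits come first, then the strongest of the more distant ones, then those of ida-1 and unc-104. The last pair was added after the words were seen, because both hold the longer run CTGCGTCTC on one strand.
rgef-1, chrV:9561894-9561994, minus strand: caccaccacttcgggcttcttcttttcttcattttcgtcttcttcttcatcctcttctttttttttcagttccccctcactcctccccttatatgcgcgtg
egl-21, chrIV:10481871-10481971, minus strand: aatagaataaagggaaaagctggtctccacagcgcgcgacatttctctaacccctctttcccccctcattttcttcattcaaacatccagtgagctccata
unc-18, chrX:7682480-7682580, plus strand: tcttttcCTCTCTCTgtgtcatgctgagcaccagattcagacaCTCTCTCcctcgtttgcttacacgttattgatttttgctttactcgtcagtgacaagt
snb-1, chrV:6656829-6656929, minus strand: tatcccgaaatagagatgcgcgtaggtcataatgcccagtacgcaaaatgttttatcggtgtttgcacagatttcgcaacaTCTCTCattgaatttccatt
egl-3, chrV:10174792-10174892, minus strand: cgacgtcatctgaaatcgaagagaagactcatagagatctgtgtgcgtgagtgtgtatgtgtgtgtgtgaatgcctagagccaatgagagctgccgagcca
unc-10, chrX:7284854-7284954, minus strand: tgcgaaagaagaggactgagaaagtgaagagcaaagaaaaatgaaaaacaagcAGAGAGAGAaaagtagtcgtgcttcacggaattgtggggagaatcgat
unc-31, chrIV:12771573-12771673, plus strand: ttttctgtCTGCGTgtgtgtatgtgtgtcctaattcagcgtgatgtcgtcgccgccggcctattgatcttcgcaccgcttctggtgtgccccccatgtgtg
unc-64, chrIII:13275925-13276025, plus strand: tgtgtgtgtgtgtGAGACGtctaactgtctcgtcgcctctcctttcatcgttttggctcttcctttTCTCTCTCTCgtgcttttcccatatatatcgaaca
ida-1, chrIII:5758841-5758941, plus strand: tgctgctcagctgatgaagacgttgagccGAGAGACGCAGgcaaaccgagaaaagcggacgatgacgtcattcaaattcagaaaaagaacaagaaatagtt
unc-104, chrII:6993111-6993211, plus strand: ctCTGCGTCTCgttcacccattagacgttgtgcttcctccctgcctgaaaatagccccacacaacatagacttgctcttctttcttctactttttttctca

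The machinery of vesicle fusion had an optimal peak at 4 of its 7 genes by the nearest 5' end. The share over all nuclear protein-coding genes was 6.77%, and the counts per role were not tested. unc-64 encodes syntaxin, the SNARE of the plasma membrane, and its summit lay 1283 bp upstream of the gene. The signal was 136 in the optimal list, and replicates 1 and 2 gave 82.2 and 56.8. unc-18 encodes the Munc18 protein that binds syntaxin, and its summit lay 366 bp upstream of the 5' end, inside the promoter window, and its signal was 119.9 (78.0 in replicate 1 and 44.4 in replicate 2). The gene of the vesicle SNARE synaptobrevin, snb-1, was the one member with a pair of summits. The first lay 2441 bp upstream with a signal of 94.8, and had 64.2 in replicate 1 and 31.6 in replicate 2. This first summit lay 219 bp from the 5' end of the noncoding RNA gene T10H9.10, outside the promoter window of that gene. The second lay 378 bp upstream with a signal of 81.2, and had 66.1 in replicate 1 and 21.1 in replicate 2. This promoter summit of snb-1 was the weakest of all summits at the 30 genes, and its rank was 861 among the calls of replicate 1 and 3599 among those of replicate 2. unc-13, the gene of the priming factor Munc13, spans 31332 bp of chromosome I, and its summit lay 1353 bp upstream and reached 81.9 (replicate 1, 52.0, replicate 2, 26.9). No optimal peak was assigned to ric-4, snt-1 or cpx-1, which encode the SNARE SNAP-25, the calcium sensor synaptotagmin and complexin. Their strongest pooled calls had signals of 53.5 in an intron of ric-4, 42.1 in an intron of snt-1 and 67.2 at 2345 bp upstream of cpx-1.

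Genes of the active zone and of synaptic vesicles had an optimal peak in 4 of 5 cases, against 6.77% of all nuclear protein-coding genes. None of these summits lay in the promoter window, where 4.58% of all genes had one. unc-10, the gene of the active zone scaffold RIM, had the strongest of these. Its summit lay 4582 bp upstream, the farthest of all, and reached 182 (replicate 1, 100.3, replicate 2, 80.8). rab-3 encodes a small GTPase of synaptic vesicles. Its summit, of signal 133 (replicate 1, 83.7, replicate 2, 42.0), lay 578 bp upstream of the 5' end of the shorter transcript and thus in an intron of the longer one. The syd-2 gene, which encodes the scaffold liprin-alpha, reached 123 (replicate 1, 81.2, replicate 2, 44). That summit lay 506 bp upstream, just outside the promoter window, and 1 bp from the 5' end of the noncoding RNA gene F59F5.9. unc-11, the gene of the clathrin adaptor AP180 that retrieves vesicle membrane, reached 130.2 at 947 bp upstream (93.9 in replicate 1 and 41.9 in replicate 2). snn-1, which encodes synapsin, had 6 pooled calls, and the strongest, in a coding exon, had a signal of 35.2 and rank 5020. It had a counterpart in replicate 1 (28.2) and none in replicate 2.

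Dense-core vesicle and neuropeptide processing genes had an optimal peak in 4 of 5 cases, against 6.77% of all nuclear protein-coding genes. The strongest summit of all 30 genes was among them. This was egl-3, the gene of the proprotein convertase that cuts neuropeptide precursors. Its peak at chrV:10174792-10174978 had a signal of 208 and rank 253 of 1574, with 131 in replicate 1 and 77.2 in replicate 2. The summit lay 1089 bp upstream of egl-3 and 229 bp from the 5' end of the noncoding RNA gene C51E3.12, whose promoter window holds it. egl-21 encodes the carboxypeptidase that acts after this cut. Its summit lay 77 bp upstream, the closest of all, with a signal of 137 (replicate 1, 90, replicate 2, 60.3). unc-31, the gene of the release factor CAPS, had a signal of 158 at 2244 bp upstream (111 in replicate 1 and 57.6 in replicate 2). ida-1 encodes a membrane protein of dense-core vesicles related to the tyrosine phosphatase IA-2. Its summit lay in an intron, 3352 bp downstream of the 5' end, with a signal of 107, and was the one summit of the 16 with a lower signal in replicate 1 (44) than in replicate 2 (64.5). ric-19, which encodes the ICA69 orthologue, had a single pooled call, 157 bp upstream, with a signal of 61.1 and rank 2123.

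Among genes of axonal transport, the neuronal cytoskeleton and broad neuronal expression, 3 of 5 had an optimal peak, against 6.77% of all nuclear protein-coding genes. rgef-1, the gene of a RasGRP-like exchange factor that is expressed in most neurons, had a signal of 167 at 270 bp upstream, inside the promoter window. Its signal was 123 in replicate 1 and 42.6 in replicate 2. unc-104 encodes the kinesin KIF1A that carries vesicle precursors along axons. Its optimal summit lay 1826 bp upstream and reached 106 (replicate 1, 63.1, replicate 2, 43.8). A further call, 76 bp upstream of unc-104 with a signal of 72.9, ranked 1632 and so fell just below the optimal list. unc-44, the gene of a neuronal ankyrin, had a signal of 100.2 at 1275 bp upstream, 66.1 in replicate 1 and 41.9 in replicate 2. This summit lay 30 bp from the 5' end of the noncoding RNA gene B0350.84. unc-33, which encodes a CRMP protein that organizes neuronal microtubules, had its strongest pooled call 73 bp upstream of a 5' end with a signal of 56.4. unc-119, which encodes a lipid-binding chaperone of neurons, had its strongest call in an intron, with a signal of 68.1 and rank 1801. The strain carries a mutation of this gene, and transgenes of this kind are commonly selected with a rescuing copy of unc-119, whose reads would map to the same place and cannot be told apart from those of the chromosomal gene.

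Genes of transmitter synthesis and vesicular transport carried no optimal peak by the nearest 5' end: 0 of 8, against 15 of the other 22 members and 6.77% of all nuclear protein-coding genes. With 8 genes, a count of 0 is near what the share over all genes would give. The contrast with the other members was seen after the values were known and was not tested. The group holds cha-1 and unc-17, the genes of the acetylcholine-synthesizing enzyme and of the vesicular acetylcholine transporter. Their 5' ends lie 2 bp apart, so the calls on either side of this shared locus are split between them, and the pair, counted here as 2 genes, are not independent. An intronic call of this locus, 1157 bp downstream of the cha-1 5' end, had a signal of 59.3 and rank 2230, with 26.1 in replicate 1 and 32.9 in replicate 2. On the upstream side, the strongest call of unc-17 had a signal of 30.1. The GABA-synthesizing enzyme gene unc-25 had a promoter call of signal 47.4 (replicate 1, 28.0, replicate 2, 19.5), and the GABA transporter gene unc-47 a promoter call with a signal of 17.2 that had no counterpart in replicate 2. The vesicular monoamine transporter gene cat-1 had a call with a signal of 64.3 and rank 1965, which lay in an intron 44 bp from the 5' end of a tRNA gene. The vesicular glutamate transporter gene eat-4 reached 20.7, and the tyrosine hydroxylase gene cat-2, which acts in dopamine synthesis, reached 12.7 at rank 29305. For tph-1, the gene of the serotonin-synthesizing tryptophan hydroxylase, none of the 30000 pooled calls was assigned by either rule. The list ends at a signal of 12.4, so weaker binding would not be seen. These 8 genes had less sequence nearest to their 5' ends than the others, a median of 5.16 kb against 9.54 kb, and the part of this in the contrast was not tested.

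**Figure D1:**
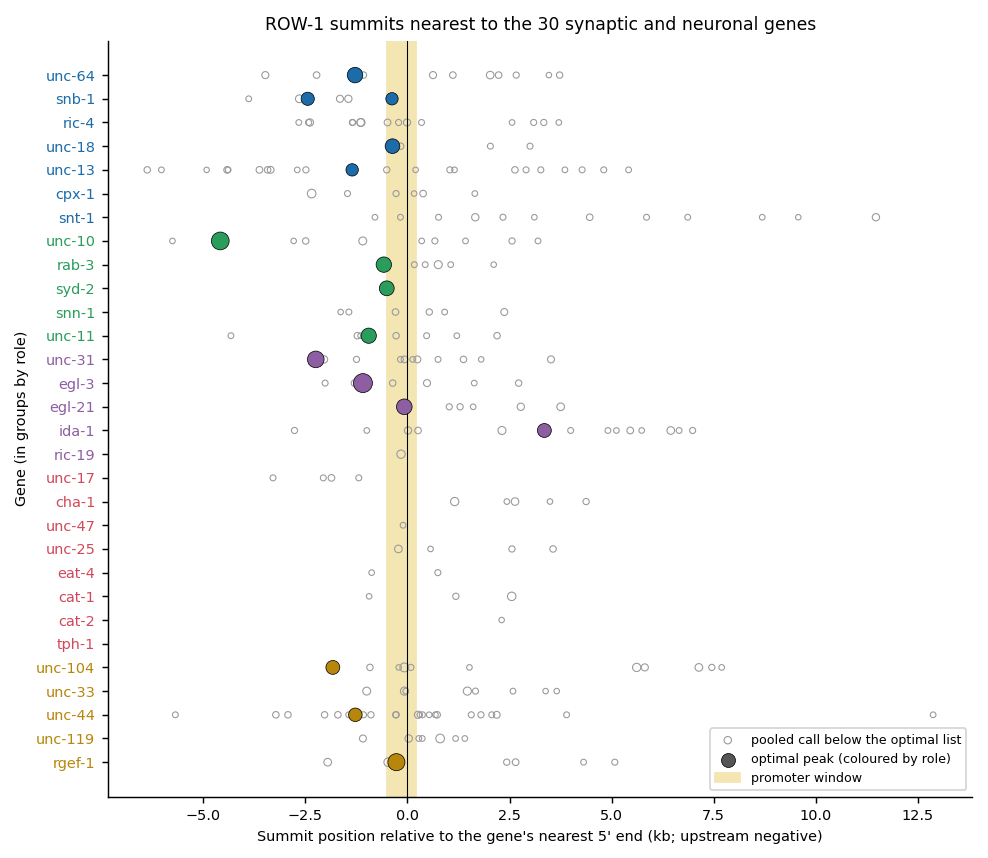
Positions of pooled calls (open circles) and optimal peaks (filled circles, area growing with signal) relative to the nearest 5' end of each of the 30 genes, in kb, with upstream negative and the promoter window shaded. Gene names and filled circles are coloured by role. The 16 optimal summits lie mostly upstream of the window, and the 8 transmitter genes from unc-17 to tph-1 have none.

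The strongest pooled call of each gene ordered 29 of the 30 genes from egl-3 at rank 253 to cat-2 at rank 29305, and tph-1 had no call to rank. A pooled call was assigned to 29 of 30 genes by the nearest 5' end and to 21 of 30 in the promoter window, against 51.5% and 29.2% of all nuclear protein-coding genes. The median was 6 nearest pooled calls per gene, against 1 over all nuclear protein-coding genes. In all, 222 pooled calls were nearest to one of the 30 genes. Of these, 91 lay in introns of the gene, 55 upstream of the promoter window, 33 in coding exons, 32 in promoter windows, 8 downstream and 3 in UTR exons. The same breakdown over all pooled calls was not made, and the 30 genes are longer than most, with a median length of 6214 bp against 2027 bp. Of the 16 optimal summits, 10 lay upstream of the window, 4 in it and 2 in introns. In 5 of the 222 a stronger call lay exactly 200 bp away, as at rgef-1 and unc-18, so neighbouring calls can be parts of 1 peak. Pairs at nearly this distance, as at egl-3, unc-31 and unc-44, shared their replicate calls but were not counted among the 5. The number of calls that are parts of a stronger peak can thus be larger and was not determined. Counts of pooled calls are therefore not counts of separate peaks.

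**Figure D2:**
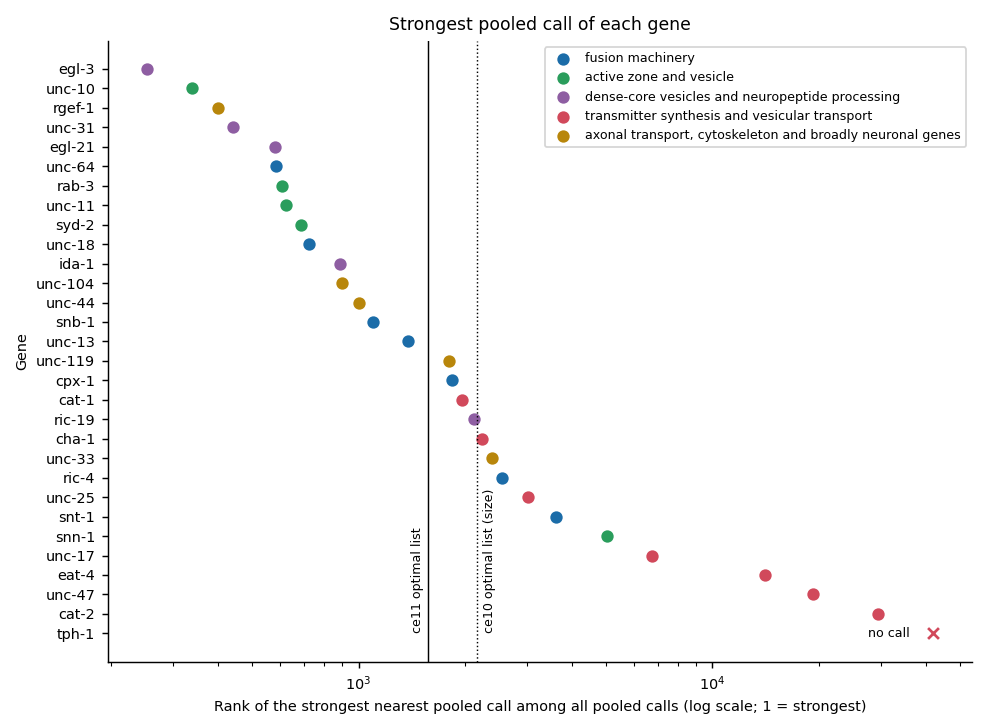
Rank of the strongest nearest pooled call of each gene among the 30000 pooled calls, on a log scale, coloured by role. The solid line marks the 1574 peaks of the ce11 optimal list and the dotted line the 2157 peaks of the ce10 optimal list. The 15 genes left of the solid line have an optimal peak, and 4 more, unc-119, cpx-1, cat-1 and ric-19, lie between the lines.

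Several members lay close to the end of the optimal list. Just inside were snb-1 (81.2) and unc-13 (81.9), and just outside were the promoter call of unc-104 (72.9), then unc-119 (68.1), a second call of rgef-1 (68.0), cpx-1 (67.2), cat-1 (64.3) and ric-19 (61.1). The rgef-1 call lies 200 bp from its stronger peak, and the other calls outside the list had a counterpart in both replicates. In replicate 1 the values were 41 for unc-104, 43.8 for unc-119, 38.7 for cpx-1, 46.9 for cat-1 and 39.8 for ric-19. In replicate 2 they were 29.1 for unc-104, 29.8 for unc-119, 29.7 for cpx-1, 23.7 for cat-1 and 17.9 for ric-19, lower than in replicate 1 for each gene. The authors deposited a second optimal list on the older assembly ce10, which held 2157 peaks and reached down to a signal of 60.5. Through the ce11 pooled calls of the same position and signal, that list gave a peak to 19 of 30 genes by the nearest 5' end and to 6 of 30 in the promoter window, against 8.97% and 6.06% of all nuclear protein-coding genes. The 4 genes added by the nearest 5' end were cat-1, cpx-1, ric-19 and unc-119, and the promoter window added ric-19 and unc-104. On ce10, therefore, 1 of the 8 transmitter genes, cat-1, had an optimal peak.

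Summits at the 30 genes lay farther from the 5' end than those at other genes, but the list was selected on a trait tied to this. A peak count that changes with the assignment rule goes with summits outside the promoter window, so the positions are given as a description. The longer nearest sequence of these genes, given below, also leaves room for larger distances, and its part was not tested. At the 30 genes the median distance of the summits was 1182 bp (quartiles 474 and 1930.5 bp), against 509 bp (190 and 1651 bp) for the 1537 other nuclear optimal summits. Upstream of the nearest 5' end lay 15 of 16 (93.8%), against 75.3% of the others, and more than 500 bp upstream lay 11 of 16 (68.8%), against 31.8%. One of these 11 is that of rab-3, inside the gene. Promoter summits made up 4 of 16, against 722 of the 1537 others, and the nearest outside the window were those of syd-2 at 506 bp and rab-3 at 578 bp. A 5' end of a gene that is not protein-coding was closer than the coding one for 9 of the 16 summits (56.2%), against 37.9% of all nuclear optimal summits. At egl-3, syd-2 and unc-44 the summit lay in the promoter window of such a gene, a noncoding RNA in each case. None of the 16 summits lay in the promoter window of another protein-coding gene, and none lay inside another protein-coding gene model. The 16 summits were spread over all 6 nuclear chromosomes, with 3 on X.

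Peak strength at these genes was in the middle of the list. Signals ran from 81.2 to 208 with a median of 127, against a median of 114 and a range from 74.8 to 1719.6 for the other nuclear optimal peaks. Both replicates had a call at every one of the 16. The 1574 highest-ranked calls of replicate 1 held 15 of the 16, those of replicate 2 held 13, and 12 stood in both sets, as did 75.7% of all nuclear optimal peaks. The signal in replicate 1 exceeded that in replicate 2 at 15 of 16 summits, the commoner order also over all nuclear optimal peaks. Its ratio to replicate 2 ran from 0.682 at ida-1 to 3.13 at the promoter summit of snb-1, with a median of 1.80, against 1.43 for all nuclear optimal peaks. The summits below the strongest 1574 calls of replicate 2 were both of snb-1 and that of unc-13, and ida-1 was below those of replicate 1.

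**Figure D3:**
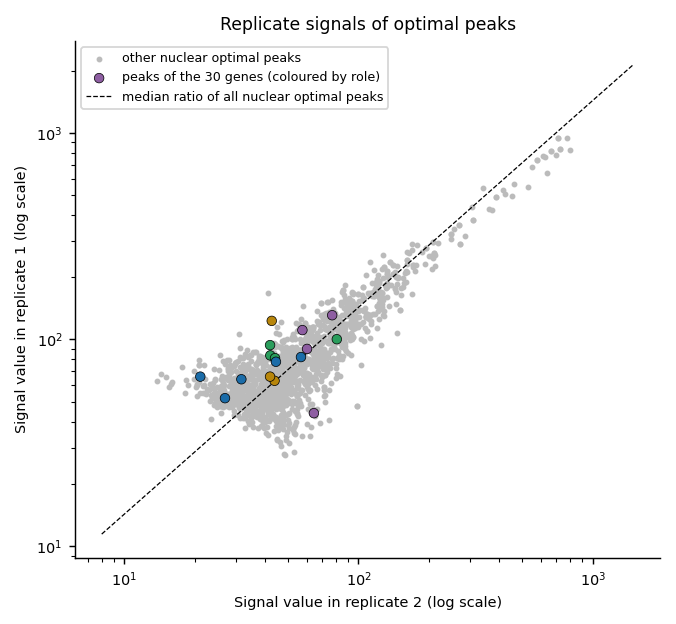
Signal of each nuclear optimal peak in replicate 1 against replicate 2, both on log scales, with the 16 peaks of the 30 genes in colour (blue fusion machinery, green active zone and vesicle, purple dense-core vesicle, gold transport and broadly neuronal genes) and the median ratio of 1.43 as a dashed line. The peaks of the 30 genes lie in the middle of the cloud, most of them above the line, and those of unc-10 and ida-1 below it.

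The 30 genes had more room around them than most genes. The sequence for which a gene has the nearest coding 5' end had a median length of 8.11 kb for the 30 genes, against 3.77 kb for all nuclear protein-coding genes, and 28 of 30 exceeded that median. Among all genes the share with a nearest optimal summit was higher where this sequence was longer, 4.55% in the first and 11.5% in the last of 4 bins of nearly equal gene number, from the least to the most sequence. Of the 30 genes, 21 were in the last bin, and 12 of these had a nearest summit. In the third bin the count was 3 of 7, against 6.33% of all genes there, and the single member in each of the other bins had none. In the promoter window the last bin had 1 of 21 members, near the 4.13% of all genes there. The third bin had 3 of 7 in the promoter window, against 3.85%. Per Mb of nearest sequence the 30 genes had 54.8 optimal summits, against 15.5 for all genes, and 760.1 pooled calls, against 299. Within the list, genes with an optimal summit had a median of 9.08 kb (4.32 to 35) and those without one 7.68 kb (2.08 to 13.9), with overlapping ranges. The part of this length in the counts was not tested.

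**Figure D4:**
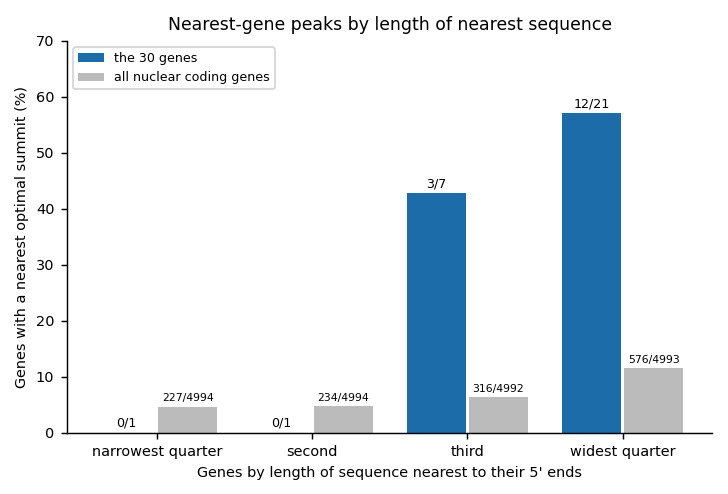
Share of genes with a nearest optimal summit, for the 30 genes (blue) and for all nuclear protein-coding genes (grey), in 4 bins of genes by the length of sequence nearest to their 5' ends. Numbers above the bars are genes with a summit over genes in the bin. In the last bin 12 of 21 of the 30 genes have a summit, against 576 of 4993 of all genes.

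Sequence at most of the summits was richer in GC than the flanks, and words of alternating G and A were found at many. The median GC content within 50 bp of the summit was 45.5% at the 16 summits, against 49.5% at the 1537 others, and 34.4% and 35.8% in flanks that began 250 bp away. The order was the other way at unc-10 (41.6% at the summit against 48.1% in its flanks) and at the promoter summit of snb-1 (40.6% against 48.1%), and egl-21 was nearly level (45.5% against 45.3%). The word GAGAGA, read on either strand, was within 50 bp of 9 of 16 summits (56.2%), against 28.6% of the others and 7.42% of the others' flanks. AGAGAG, which overlaps it, was at 7 of 16 (43.8%), against 24.9% of the others and 5.92% of their flanks. The flanks of the 16 summits themselves held GAGAGA in 2 cases and AGAGAG in 3, a larger share than the flanks of the others. Summits with GAGAGA were those of unc-10, unc-64, rab-3, unc-11, unc-18, ida-1, unc-44 and both of snb-1. They came from every role that had optimal peaks. CGTCTC was at 3 of 16 summits (20.3% of the others, 3.45% of flanks), while GACGCA was at 2 (18.8% and 2.41%) and ACGCAG at 3 (18.6% and 2.86%). These 3 words overlap in the run CTGCGTCTC, which was at 2 of 16 summits, ida-1 and unc-104, against 9.89% of the others and 0.716% of their flanks. None of the 5 words was at egl-3, rgef-1, egl-21 or syd-2, although the first of these was the strongest of all, and the printed sequence of rgef-1 is mostly C and T. Over the 16 summits 12 held at least 1 word (75%), against 52.1% of the others. A match describes the letters and is not evidence of a binding site.

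Other neuronal genes, in 10 lists that do not include the 30, differed widely among themselves. By the nearest 5' end, 42 of their 317 genes had an optimal summit (13.2%), against the 6.77% of all genes given above, and 19 had one in the promoter window (5.99%), near the 4.58% of all genes. The lists of the vesicle cycle, of axonal transport and of synapse assembly had most of them. Other genes of the synaptic vesicle cycle and of release, several of which encode endocytic proteins used by most cells, had a nearest summit in 14 of 32 cases (43.8%) and a promoter summit in 8 (25%). Among them dpy-23, the gene of an AP2 adaptor subunit, had a signal of 206 at 291 bp upstream, and unc-41, which encodes the endocytic adaptor stonin, 182 at 1563 bp downstream. Axonal transport, tubulin and cytoskeleton genes had 9 of 18 (50%), including unc-16, a kinesin adaptor gene, with 175 at 95 bp upstream, and the spectrin gene spc-1 with 169.8 at 733 bp upstream. Synapse assembly and axon guidance genes had 8 of 28 (28.6%), among them syd-1 with a signal of 188 and unc-76 with 176, and voltage-gated and leak channels 4 of 23 (17.4%), led by unc-79 at rank 778 and followed by unc-80, whose signal was 91.7.

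Receptors, monoamine genes and peptide precursors had no more summits than genes in general. Together 7 of 216 genes in these 6 lists had a nearest summit (3.24%, against 6.77% of all genes). Of the 216, 2 had a promoter summit (against 4.58% of all genes). These 6 are also the lists with the lowest nearest shares among the other neuronal lists. Their joint share is thus low through the grouping and is given as a description. The monoamine list, with enzymes, transporters and receptors, had 0 of 25, a count not far from what the share over all genes would give. Its genes had a median of 12.7 kb of nearest sequence, against 8.11 kb for the 30 genes, and the part of this length was not tested. Acetylcholine and GABA receptor and transport genes had 2 of 31 (6.45%), close to the share of all genes. These were lev-9 with a signal of 167 and the receptor subunit gene unc-63 with 90.5. Glutamate receptor genes had 0 of 20 by the nearest 5' end, and glr-6 had a summit with a signal of 74.9 in its promoter window. Of the FMRFamide-like precursor genes 1 of 31 had a nearest summit, flp-23 with a signal of 86.3. Of other neuropeptide-like genes 2 of 71 did, nlp-40 with 324 and nlp-76 with 167. Of insulin-like genes 2 of 38 did, ins-39 with 943 and ins-13 with 470.1. None of these neuropeptide-like and insulin-like summits lay in the promoter window. Those of nlp-40 and ins-13 lay 1910 and 1166 bp downstream of the 5' end, and those of nlp-76 and ins-39 1297 and 635 bp upstream. The ins-39 peak had rank 27 of 1574. The differences between lists were not tested.

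**Figure D5:**
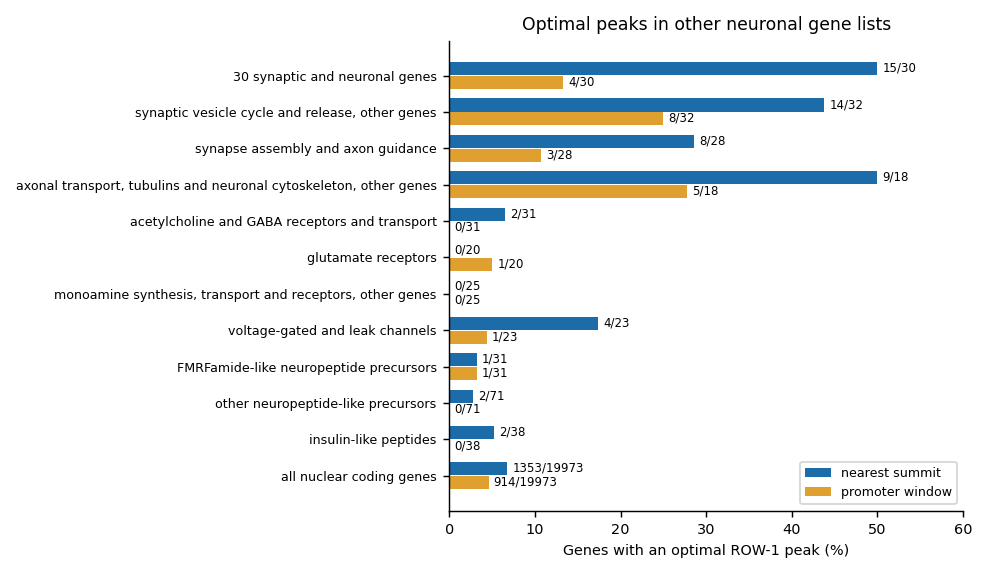
Share of genes with an optimal peak by the nearest 5' end (blue) and in the promoter window (orange) for the 30 genes, 10 other neuronal lists and all nuclear protein-coding genes, with counts beside the bars. The vesicle cycle and transport lists stand near the 30 genes at 43.8% and 50%, and the receptor, monoamine and peptide lists between 0% and 6.45%.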

How the data were processed

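Peak lists in narrowPeak format were analysed: 1 call list per replicate (28339 calls in replicate 1 and 25405 in replicate 2), a pooled list and an optimal list on ce11, and the optimal list on ce10. The authors derived the call lists from alignments and 1 further file and applied an IDR threshold to make the optimal list, per the deposited file listing. The aligner, the caller and the threshold were not stated in the sources used here, and neither was the scale of the signal value, which is used as the authors deposited it.

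A summit is the peak start plus the offset in the list, written from position 1. Gene models were those of Ensembl release 115 and sequence that of RefSeq, both of WBcel235, and on X the reference length of 17718942 is where the pooled calls stop. All annotated 5' ends of a gene counted. The replicate value of a peak is that of the strongest call that overlaps it by 1 bp. A ce10 peak was matched to a ce11 pooled call on the same chromosome within 1 kb and 2% of its signal, which gave 2155 matched calls, and no coordinate was converted. Words of 6 bases were ranked by their share at summits minus that in flanks, over peaks not assigned to the 30 genes.

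The members and lists were chosen with earlier results of these data known. Every member is named, and of each other list up to 2 genes with the strongest summits. Of the symbols in the other lists, 3 matched no gene. The assignment and the word ranking were tested on simulated data. Alternatives were other windows, peak overlap, outermost 5' ends, genes of any type, limits of distance, gene bodies with flanks, stronger or longer lists, and each replicate alone. The ce10 list was added after the data were seen. Computations used Python 3.11.15, numpy 2.4.6 and pandas 2.3.3.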

Additional observations from a re-analysis of the deposited data

How the results depend on the processing

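The count of 4 members with a promoter peak became 1 (egl-21, 3.33% of the 30 against 2.83% of all genes) with 250 bp upstream and 100 bp downstream as the promoter window, 7 (against 6.08%) with 1000 bp and 500 bp, and 8 (against 7.98%) with the 3148 strongest pooled calls. The count of 15 by the nearest 5' end became 7 (23.3% against 4.41%) when genes of any type competed for a summit, which then went to noncoding genes, and 23 (76.7% against 12.1%) with the 3148 strongest pooled calls. With that longer list 3 of the 8 transmitter genes, cat-1, cha-1 and unc-25, had a nearest call. All other alternatives stayed within 1.5 times of these counts. They ran from 3 to 6 for the promoter window, with 2.31% to 6.06% of all genes, and from 10 to 21 for the nearest 5' end, with 3.46% to 12.8% of all genes, where, of the transmitter genes, cat-2 was added by outermost 5' ends, and cat-2 and unc-17 by gene bodies with flanks. From 1 replicate alone, without replicate 1 or without replicate 2, the promoter counts were 3 and 5 (4.22% and 4.59% of all genes) and the nearest counts 14 with cha-1 and 15 with cat-1 (6.53% and 6.77% of all genes). No paired analysis was possible because there is 1 group. Neither depth nor a control sample was available here to set a limit of detection.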
